A study of Oryza sativa with 12 samples.

Results

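The metallothioneins MT2a (LOC_Os01g05650, chromosome 1), MT2b (LOC_Os05g02070, chromosome 5) and MT-I-4b (LOC_Os12g38270, chromosome 12) were followed in rice anthers of wild-type plants and of the nup1 mutant. These 3 genes were taken by locus from 2 tables that together list 7087 genes, and MT2a alone of them is in both tables. Anthers were sampled at stage 10 and stage 11 of anther development, with 3 biological replicates for each genotype and stage and 12 poly(A) RNA libraries in all. No treatment, cultivar or plant age is given in the labels, nor is the gene that is altered in nup1, so no targeted gene was checked. The series title links the mutant to an oxidative burst, to loss of the Ubisch bodies of the tapetum and to male sterility.

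Each table holds only genes that the authors had called different between the genotypes at that stage, with the FPKM of every library (fragments mapped to a gene, divided by transcript length and by the mapped fragments of the whole library) and a direction. The members were selected on that listing, and so on the FPKM difference between the genotypes within a stage. Their difference between wild type and nup1 is therefore given as a description, without a test. A member missing from a table is not analysed here for that stage: MT2b was listed at stage 10 alone and MT-I-4b at stage 11 alone.

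Metallothioneins are small proteins rich in cysteine, whose thiol groups bind copper, zinc and cadmium ions and can also quench reactive oxygen species. In rice, MT2b is known as a scavenger of reactive oxygen whose transcript is lowered by the small GTPase Rac1, and loss of MT2b promotes the death of epidermal cells over emerging adventitious roots. In the anther, a type 1 metallothionein named MT-1-4b is known as a target of the floral regulator MADS3. The RefSeq gene table (assembly ASM3414082v1) gives that name to OsMT-I-4c, a neighbour of OsMT-I-4b on chromosome 12, so background on that gene does not apply to LOC_Os12g38270 without a check. It also gives MT2C as a second name of the chromosome 5 gene OsMT2b, and MT2B as one of a chromosome 1 gene also called OsMT2c.

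Depth in fragments is unknown, since the tables give FPKM alone. The share of fitted genes (mean of 1 FPKM or more) lying more than 2-fold away, in 1 direction, from the rest of the group was 8.43% in wild-type replicate 2 at stage 10 and 7.63% in nup1 replicate 1 at stage 11, against 0.26% to 4.94% in the other 10 libraries. The summed FPKM of listed genes was lower in every nup1 library than in every wild-type library of its stage, at 121242 to 137071 against 142003 to 182631 at stage 10 and 125358 to 147954 against 209625 to 227419 at stage 11. Within a stage, genes were fitted with limma on log2(FPKM + 1), and the threshold was an adjusted p under 0.01 with a fold over 2. Of the genes past the threshold, 45.4% were lower in nup1 at stage 10 and 63.6% at stage 11. With median centring these shares were 57.8% and 40.0%, and with quantile normalization 53.8% and 39.0%. Median centring shifted the median gene by -0.20 at stage 10 and 0.44 at stage 11 on the log2 scale. The directions of MT2a, MT2b and MT-I-4b, genes selected on that difference, did not turn under either scaling.

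MT2a was far lower in nup1 than in wild type at stage 10. The wild-type libraries held 289, 673 and 338 FPKM of MT2a in replicates 1 to 3, and the nup1 libraries 24.7, 43.2 and 33.3 FPKM. All 3 nup1 libraries lay below all 3 wild-type libraries, as in 42.0% of listed genes, and the highest nup1 value was 0.15 of the lowest wild-type value. The means were 433 ± 209 (SD, n = 3) in wild type and 33.7 ± 9.3 (SD, n = 3) in nup1, a 12.8-fold lower mean in nup1. On the log2(FPKM + 1) scale the difference, nup1 minus wild type, was -3.58 ± 0.37 (SE of a linear model over all listed genes).

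The wild-type spread of MT2a at stage 10 came mainly from replicate 2, whose level was 2.14 times the mean of the other wild-type replicates. On the same measure MT2b stood at 0.926 in that library. The tapetum markers in it stood at 1.92 (RTS), 1.26 (RAFTIN1), 1.04 (OsC6) and 0.806 (AP37) times, and the pollen and sugar supply markers at 11.8 (INV4), 2.38 (MST8) and 1.11 (CSA) times. The green tissue markers stood at 1.93 (RBCS4), 1.81 (LHCB) and 1.65 (RBCS3) times. Without that library the MT2a difference was -3.21.

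At stage 11 MT2a was again far lower in nup1. Wild-type libraries held 1216, 992 and 1214 FPKM in replicates 1 to 3, and nup1 libraries 94.6, 114 and 67.0 FPKM. The nup1 libraries again lay below all wild-type libraries, as in 57.6% of listed genes, and the wild-type libraries were closer to each other than at stage 10, with an SD of 11.3% of the mean against 48.2%. The means were 1141 ± 128 and 91.8 ± 23.5 FPKM (SD, n = 3 each), a 12.4-fold lower mean in nup1, and the log2 difference was -3.65 ± 0.22 SE.

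**Figure D1:**
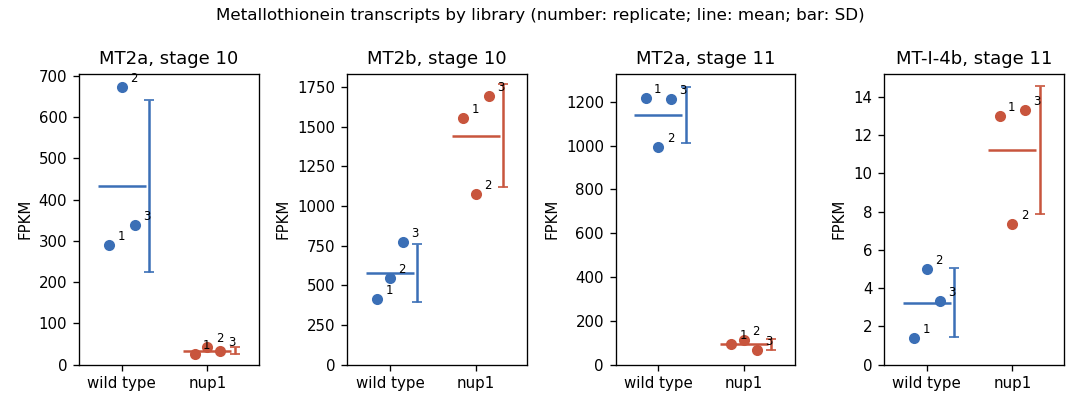
FPKM of each metallothionein in every library (points numbered by replicate), with the mean (line) and SD (bar) of 3 libraries per genotype, on axes that start at 0 and differ between panels. MT2a is near the floor of its axis in all nup1 libraries at both stages, whereas MT2b at stage 10 and MT-I-4b at stage 11 are higher in each nup1 library than in any wild-type library.

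Among the genes of each table MT2a was one of the most abundant in wild type. By mean FPKM, which is scaled to transcript length, it ranked 50 of 3453 listed genes at stage 10 and 20 of 5084 at stage 11. In nup1 its rank was 603 and 324. Differences at least as negative as that of MT2a were seen in 75 of 3358 fitted genes at stage 10 and 182 of 4992 at stage 11. Of these genes, 17 and 11, MT2a included, reached as high a mean level in their higher genotype. With wild-type ranks of 50 and 20, few listed genes reached that level in wild type. The counts therefore do not make the difference rare among genes this abundant.

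MT2b went in the opposite direction at stage 10. Its wild-type libraries held 413, 548 and 772 FPKM in replicates 1 to 3, and its nup1 libraries 1557, 1077 and 1695 FPKM. The nup1 libraries lay above all wild-type libraries, as in 52.8% of listed genes, although the lowest nup1 library stood just 1.40 times above the highest wild-type library. The means were 578 ± 181 and 1443 ± 324 FPKM (SD, n = 3 each), 2.50-fold higher in nup1, with a log2 difference of 1.34 ± 0.34 SE. Left out in turn, the libraries moved that difference between 1.12 (without wild-type replicate 1) and 1.57 (without wild-type replicate 3).

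With these levels MT2b ranked 36 of 3453 listed genes in wild type and 8 in nup1. A difference at least as positive was common, in 911 of 3358 fitted genes. Of these, 7, MT2b included, had as high a level in their higher genotype. That count was bounded by the nup1 rank of 8, so it does not make the difference rare among genes this abundant. The difference in MT2b was thus modest in fold and large in FPKM.

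MT-I-4b was a scarce transcript by comparison. At stage 11 its wild-type libraries held 1.38, 4.98 and 3.34 FPKM in replicates 1 to 3, and its nup1 libraries 13.0, 7.34 and 13.3 FPKM. Each nup1 library lay above each wild-type library, as in 36.8% of listed genes, with the lowest nup1 value 1.48 times the highest wild-type value. The means were 3.23 ± 1.80 and 11.2 ± 3.4 FPKM (SD, n = 3 each), 3.47-fold higher in nup1, and the log2 difference was 1.58 ± 0.38 SE. It shrank to 1.22 without wild-type replicate 1, the library with the least MT-I-4b.

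In rank, MT-I-4b stood at 3900 of 5084 listed genes in wild type and at 2040 in nup1. The RefSeq table names 3 metallothionein genes on chromosome 12, of 9 in all, and reads from similar copies may have been shared out among them, so the level of this one locus is uncertain. The pseudocount of 1 FPKM also matters most here: with 10 FPKM the difference was 0.68.

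In either direction, groups that do not overlap were the rule in these tables of called genes, in 94.8% of listed genes at stage 10 and 94.4% at stage 11. Nothing about the metallothioneins is read from the separation of their groups.

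**Figure D2:**
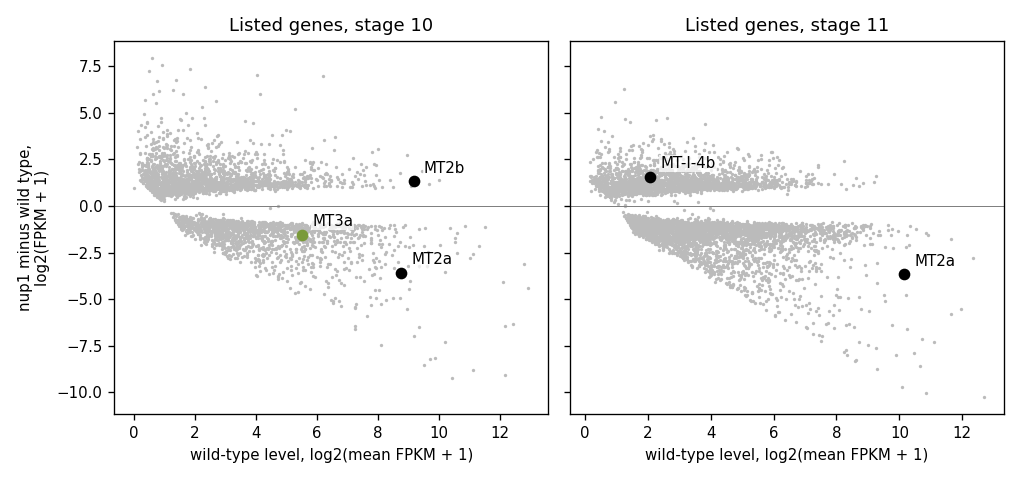
Change (nup1 minus wild type, log2(FPKM + 1)) against the wild-type level (log2 of mean FPKM + 1) of each fitted gene (grey points) at stage 10 and stage 11, with the metallothioneins marked. MT2a and MT2b lie at the abundant end, on opposite sides of 0 at stage 10, and MT-I-4b lies among scarce genes. The gap around 0 comes from the tables, which hold called genes only.

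A ratio of 2 transcripts in the same library does not depend on how that library was scaled. The ratio of MT2a to MT2b at stage 10 was 0.701, 1.23 and 0.438 in wild-type replicates 1 to 3, so both transcripts were present at similar FPKM. In nup1 MT2b exceeded MT2a by 63.1, 24.9 and 50.9 times. The mean log2 ratio was -0.47 ± 0.74 in wild type and -5.43 ± 0.70 in nup1 (SD, n = 3 each), a difference of -4.96 that stayed between -5.36 and -4.58 with any 1 library left out.

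The summed FPKM of both genes was not lower in nup1, at 1011 ± 273 in wild type and 1477 ± 317 in nup1 (SD, n = 3 each). The sum ranged from 702 to 1221 FPKM over the wild-type libraries and from 1121 to 1728 over the nup1 libraries, so the groups overlapped. Nearly all of the sum in nup1 was MT2b, whereas in wild type the higher of the pair differed between libraries.

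At stage 11 the ratio of MT2a to MT-I-4b was 879, 199 and 363 in wild-type replicates 1 to 3 and 7.29, 15.5 and 5.03 in the nup1 replicates. MT2a was the more abundant of the pair in each library. The mean log2 ratio was 8.64 ± 1.08 in wild type and 3.05 ± 0.83 in nup1 (SD, n = 3 each), a difference of -5.59 with a range of -6.09 to -5.02 when 1 library was left out. Because MT2b was not in the stage 11 table, the sum of the type 2 pair is not analysed here for that stage.

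**Figure D3:**
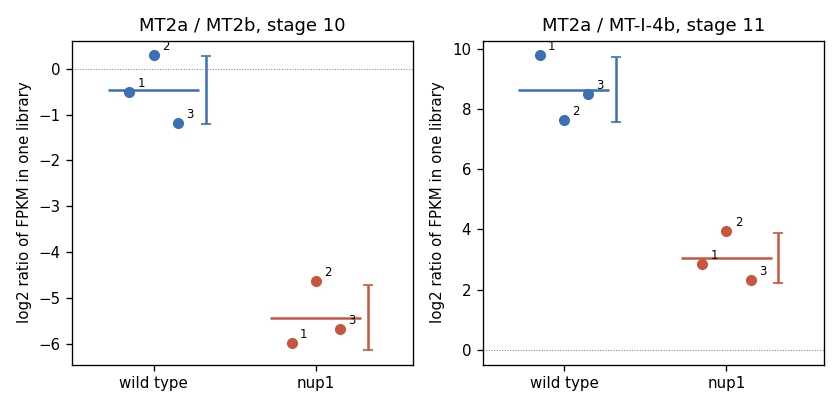
Log2 ratio of FPKM of 2 metallothioneins within each library (points numbered by replicate, line for the mean, bar for the SD, 3 libraries per genotype). In wild type at stage 10 the ratio of MT2a to MT2b lies around 0, and in nup1 it lies between -5.98 and -4.64.

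The tables allow the nup1 effect on MT2a to be compared between stages. The choice of members did not use the size of that difference, but the authors had called MT2a lower in nup1 at both stages. Those calls came from the same libraries and restrict how far the effects can differ, so the comparison is not independent of the selection. The effect at stage 11 minus that at stage 10 was -0.07 ± 0.50 SE, with a 95% confidence interval from -1.15 to 1.01 on the log2 scale (limma interaction contrast over 1436 genes in both tables, Benjamini-Hochberg adjusted p = 0.947). Of those genes, 21.4% had a difference past an adjusted p of 0.01. The interval admits a change of about 2-fold either way, so equal effects are not shown. The sign of the estimate turned under both other scalings and in 4 of 12 fits that left out 1 library. Wild-type levels at the 2 stages (433 and 1141 FPKM) stand in separate tables, for which no common normalization is stated, and were not compared.

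**Figure D4:**
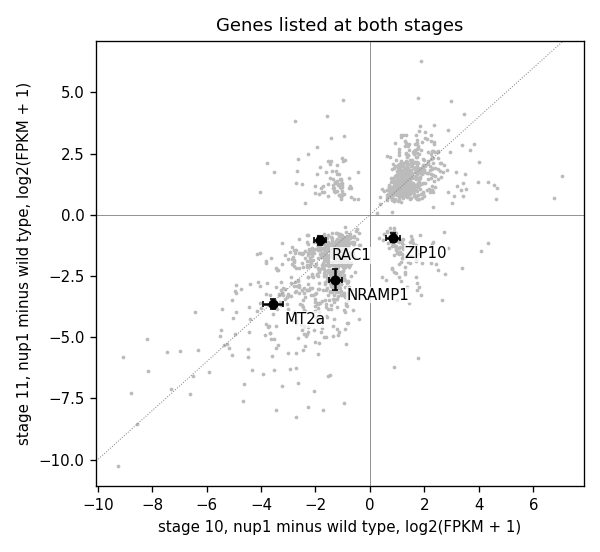
The nup1 effect (nup1 minus wild type, log2(FPKM + 1)) at stage 11 against stage 10 for genes fitted in both tables (grey), with MT2a and the list genes RAC1, NRAMP1 and ZIP10 in black with SE bars. MT2a lies on the dotted line of equal effects, at -3.58 and -3.65, while ZIP10 has opposite signs at the 2 stages.

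A list of 11 other metallothionein loci was compiled to place the members in their family. MT3a (LOC_Os01g10400), a type 3 metallothionein, was listed at stage 10 and the other 10 loci were not. At stage 11 none of the 11 was listed. MT3a held 32.6, 60.5 and 40.8 FPKM in wild-type replicates 1 to 3 and 12.2, 25.8 and 9.13 FPKM in nup1. The nup1 libraries were all lower, as in 42.0% of listed genes, with means of 44.6 ± 14.4 and 15.7 ± 8.9 FPKM (SD, n = 3 each).

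MT3a fell by 1.53 ± 0.39 SE on the log2 scale and passed the threshold (limma, adjusted p = 0.00522, with a fold over 2). Of all genes fitted at stage 10, 72.9% passed that threshold, 33.1% as lower and 39.8% as higher in nup1, so a pass is the common outcome in this table. It no longer passed when wild-type replicate 2 (adjusted p = 0.0157), nup1 replicate 1 (adjusted p = 0.0216) or nup1 replicate 3 (adjusted p = 0.0231) was removed. The direction of its difference was that of MT2a, not that of MT2b.

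Genes that move or chelate the metals bound by metallothioneins formed a list of 41 loci. At stage 10, 7 of them were listed, and 1 rose, 2 fell and 4 did not pass. Of all genes fitted at that stage, 39.8% passed as higher, 33.1% as lower and 72.9% in either direction. ZIP7, a member of the zinc- and iron-regulated transporter family, rose from 12.7 ± 0.8 to 28.1 ± 2.1 FPKM. The divalent metal transporters NRAMP1 and NRAMP5 fell by 1.27 ± 0.24 and 1.30 ± 0.29 SE on the log2 scale (limma, adjusted p = 0.00143 and 0.00292). The median difference of the 7 genes was -0.80, against 0.85 over all fitted genes. By the authors' direction 4 of the 7 were lower and 3 higher, against 1511 lower and 1942 higher of all 3453 listed genes. The sign of that median thus rests on a split of 4 to 3.

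The NRAMP5 and ZIP7 calls at stage 10 rested on single libraries or on the scaling. NRAMP5 did not pass without nup1 replicate 2 (adjusted p = 0.0143) or nup1 replicate 3 (adjusted p = 0.0152), and ZIP7, at 1.08 ± 0.22 SE, went under the fold of 2 with median centring (0.89) and quantile normalization (0.99) and did not pass without nup1 replicate 3 (adjusted p = 0.0103).

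At stage 11, 8 of the 41 were listed, 3 rose, 3 fell and 2 did not pass, where 26.3% of all 4992 fitted genes passed as higher, 46.0% as lower and 72.3% in either direction. NRAMP1, which takes up iron and other divalent metals, held 36.5, 22.3 and 31.6 FPKM in wild type and 8.81, 2.37 and 2.53 FPKM in nup1, and fell by 2.64 ± 0.43 SE on the log2 scale. COPT1, a copper transporter of the plasma membrane, fell from 16.0 ± 2.7 to 4.09 ± 0.96 FPKM. A second copper transporter of that family, COPT6, rose from 2.16 ± 1.04 to 11.7 ± 5.5 FPKM (log2 difference 1.93 ± 0.42 SE).

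HMA4, a copper-transporting ATPase of the vacuole, rose at stage 11 by 1.02 ± 0.17 SE, and ZIP1 by 1.02 ± 0.25 SE. HMA2, a zinc- and cadmium-transporting ATPase, fell by 1.16 ± 0.31 SE. The median difference of the 8 genes was -1.05, against -0.98 over all fitted genes. COPT6 did not pass when wild-type replicate 1 or 2 or nup1 replicate 2 or 3 was removed (adjusted p up to 0.0139), nor did ZIP1 when any wild-type replicate or nup1 replicate 3 was (adjusted p up to 0.0261). Among these fits HMA2 passed only with all libraries or without nup1 replicate 2 (adjusted p up to 0.0344 otherwise), and not with median centring (-0.72) or quantile normalization (-0.65). HMA4 went under the fold of 2 without nup1 replicate 1 (0.91).

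Of 10 enzymes that remove superoxide or peroxide, 3 were listed at stage 10 and 0 passed with limma, though all 3 had an unadjusted p under 0.05. Of all genes fitted at stage 10, 72.9% passed in either direction. The copper-zinc superoxide dismutases SODCC1 and SODCC2, which need the metals that metallothioneins bind, had log2 differences of -0.995 and -0.930 that missed the fold of 2 alone (limma, adjusted p = 0.00371 and 0.00501). Both passed as lower with median centring (-1.19 and -1.13), and SODCC1 also with a pseudocount of 0.1 and without wild-type replicate 1 or 3 (-1.08 and -1.02). With quantile normalization both were further from the fold of 2 (-0.75 and -0.76) and missed the adjusted p as well (limma, 0.0130 and 0.0104). Both also missed the adjusted p without nup1 replicate 1 (0.0155 and 0.0195) or nup1 replicate 3 (0.0125 and 0.0178). The catalase CATC had wild-type and nup1 means of 1.21 ± 0.39 and 2.37 ± 0.34 FPKM (log2 difference 0.62, limma, adjusted p = 0.0208). At stage 11, 46.0% of all fitted genes passed as lower. There 2 of the enzymes were listed and both fell, the plastid enzyme SODCP (log2 difference -1.004 ± 0.152 SE) and the ascorbate peroxidase APX1 (-1.08 ± 0.16 SE). With median centring both were under the fold of 2 (-0.56 and -0.64), and quantile normalization gave SODCP -0.60 and turned APX1 to 0.056. SODCP was also under that fold without wild-type replicate 2 (-0.95) or nup1 replicate 3 (-0.92).

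Among 6 partners and regulators of metallothioneins, the small GTPase Rac1 was listed at both stages with RACK1A, a scaffold protein that binds it, listed at stage 11. Rac1 held 38.4, 48.7 and 42.3 FPKM in wild-type replicates 1 to 3 at stage 10, and 10.6, 10.9 and 12.2 FPKM in nup1. It fell by 1.84 ± 0.22 SE on the log2 scale at stage 10 (limma, adjusted p = 0.000168) and by 1.04 ± 0.19 SE at stage 11 (adjusted p = 0.00146). Its part in the level of MT2b was not tested. RACK1A fell from 249 ± 8.0 to 86.9 ± 6.0 FPKM at stage 11. The Rac1 call at stage 11 ended with median centring (-0.60) and quantile normalization (-0.64), and without wild-type replicate 1, nup1 replicate 1 or nup1 replicate 3 (-0.97 to -0.95). RACK1A was under the fold of 2 with quantile normalization (-0.96). MADS3, its paralogue MADS58, RbohB and SPL9, the other 4 genes of that list, were not listed and are not analysed here.

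**Figure D5:**
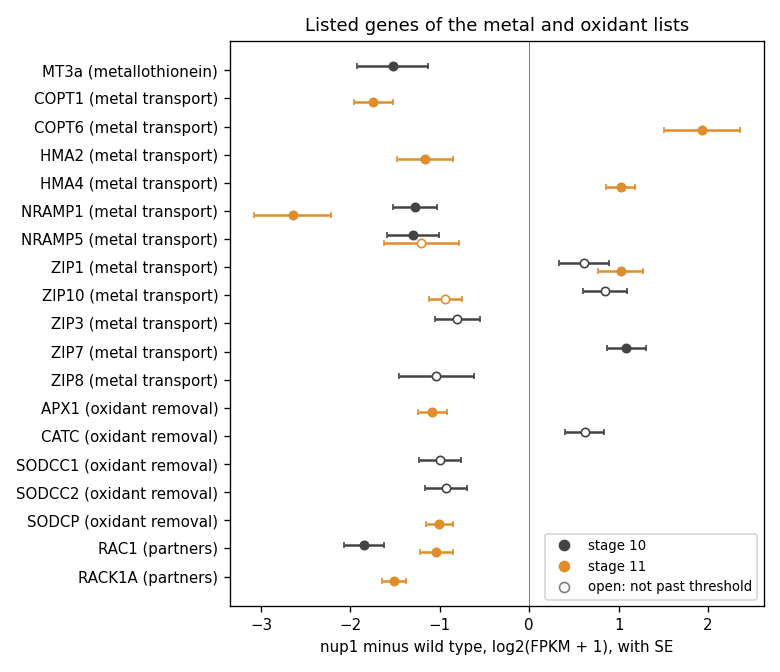
Change in nup1 (nup1 minus wild type, log2(FPKM + 1), with SE) of the listed genes of the 4 lists at stage 10 (dark) and stage 11 (orange); filled points passed an adjusted p of 0.01 with a fold over 2. Metal transporters lie on both sides of 0, and RAC1 is below 0 at both stages.

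The genes with the profile nearest to each member were found by the root mean square difference of log2(FPKM + 1), after subtraction of each gene's mean within a stage. That profile holds the genotype difference on which all listed genes were selected, in either direction, so a large median distance is built in. Only genes with a mean of at least 10 FPKM were compared. MT-I-4b, with means of 3.23 FPKM in wild type and 11.2 in nup1, was itself below that level over its libraries. For MT2a, over 12 libraries and 746 genes, the nearest were LOC_Os09g25390 at 0.253 and LOC_Os06g06890 at 0.257, where the median gene was at 1.38. At stage 10 the means of LOC_Os09g25390 were 39.0 FPKM (wild type) and 2.68 FPKM (nup1), and at stage 11 they were 107 and 10.3. For MT2b, over 6 libraries and 1493 genes, LOC_Os04g52410 was nearest at 0.135, with means of 7.75 and 21.7 FPKM. For MT-I-4b, over 6 libraries and 2560 genes, it was LOC_Os06g05440 at 0.184, with means of 9.08 and 36.7 FPKM. The files give no names for these loci.

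Marker transcripts of other cell types also differed between the genotypes. The tapetum list had 4 of 5 markers in each table, none at 0, and its summed level was 12344 to 16471 FPKM in wild type and 1253 to 1571 in nup1 at stage 10. At stage 11 it was 4337 to 5620 and 397 to 992 FPKM. All nup1 libraries lay below all wild-type libraries for RTS, RAFTIN1 and OsC6 at both stages and for TDR at stage 11. The same held for 42.0% of listed genes at stage 10 and 57.6% at stage 11. For the protease AP37 at stage 10 they lay above, as in 52.8% of listed genes. OsC6 at stage 11 held 496, 70.1 and 11.6 FPKM in nup1 replicates 1 to 3, where the lowest wild-type library held 555. It did not pass the threshold there (limma, adjusted p = 0.0347). In wild type at stage 10 the means of RTS, RAFTIN1 and OsC6 were 4557, 2231 and 6991 FPKM, while that of AP37 was 1.44 FPKM. The tissue is known from its label and was not tested with these markers.

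The pollen and sugar supply list had 3 of 3 genes listed at stage 10, with a summed 155 to 424 FPKM in wild type and 14.9 to 25.5 in nup1, and 2 of 3 at stage 11, with 410 to 443 and 2.27 to 12.3 FPKM. INV4 was at 0 in 1 nup1 library of stage 11. Markers of green tissue, 3 of 4 listed at each stage, summed to 205 to 367 FPKM in wild type and 265 to 342 in nup1 at stage 10, and to 701 to 1324 and 407 to 608 at stage 11. The stage 10 sums join opposite differences: log2 differences were 1.28 for the light-harvesting gene LHCB, and -1.39 and -0.99 for the Rubisco small subunit genes RBCS3 and RBCS4. The part of these cells in the differences of the metallothioneins was not tested, and in whole anthers fewer cells of a type and less transcript per cell cannot be told apart.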

How the data were processed

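Paired reads from poly(A) RNA were aligned by the authors to the MSU rice genome, release 7.0, with HISAT2 and quantified with Cufflinks (version of either: not given in the sources used here), per the labels and the design text. The deposited FPKM tables hold only genes that the authors called, with an FDR below 0.01 and more than 2-fold change as their limits. Nothing states whether replicates were normalized together, and as FPKM share out a fixed total, a fall of abundant transcripts can raise others. Ratios of low FPKM between libraries showed no common steps (at most 1.63% at 1 value), so reads were not recovered.

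Within a stage, log2(FPKM + 1) was fitted with limma 3.58.1 (R 4.3.3, trended variance), leaving out genes whose mean was below 1 FPKM. The threshold was an adjusted p under 0.01 with a fold over 2, adjusted over all fitted genes of the table. The fit was tested on simulated data with 200 changed genes at each stage. That is far fewer than passed here (2449 and 3610), so the simulation does not cover the setting of these tables. P-values over listed genes re-examine genes already selected and are not independent of the authors' calls. The replicates are labelled as biological.

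Members and lists were chosen with earlier results of these data known. Genes named besides the members are any other metallothionein listed, up to 3 genes past the threshold per list and stage with the largest change, and the nearest profiles, of which 4 of 9 are given because the loci have no names here. ZIP1, HMA4, HMA2, ZIP10, SODCC1, SODCC2, CATC and RBCS4 were named after their values were seen where that rule did not name them. The lists hold 83 loci with symbols from recall: 58 match a symbol of the RefSeq gene table (assembly ASM3414082v1) that lies on their chromosome, and 25, MT3a among them, match none. No sequence is given, since none was among the sources used here.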

Additional observations from a re-analysis of the deposited data

Results flagged for a closer look

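The effect of nup1 on ZIP10 (LOC_Os06g37010), a member of the zinc- and iron-regulated transporter family, differed between the stages. It held 2.24, 3.08 and 3.46 FPKM in wild-type replicates 1 to 3 and 5.49, 5.24 and 7.45 in nup1 at stage 10, and 5.99, 6.56 and 5.45 against 2.51, 2.64 and 2.80 at stage 11. All nup1 libraries were thus higher at stage 10, as in 52.8% of listed genes, and lower at stage 11, as in 57.6%. The effect was 0.85 ± 0.25 SE at stage 10 and -0.94 ± 0.18 SE at stage 11, and neither passed the fold of 2 by itself. The authors had called ZIP10 higher in nup1 at stage 10 and lower at stage 11, so a difference between stages was close to fixed by those calls. The difference was -1.78 ± 0.30 SE (limma interaction contrast, adjusted p = 0.000604, where 21.4% of 1436 genes passed). It passed in each of 12 fits that left out 1 library, with a median-centred value of -1.14 (adjusted p = 0.0114) and a quantile-normalized value of -1.002 (adjusted p = 0.022) that did not pass.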

How the results depend on the processing

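The directions of MT2a, MT2b and MT-I-4b held in every alternative run. As the members were taken from genes already called in these libraries, a kept direction is no independent support. With 1 library left out, the differences ranged from -3.82 to -3.21 for MT2a at stage 10, from -3.82 to -3.44 at stage 11, from 1.12 to 1.57 for MT2b and from 1.22 to 1.88 for MT-I-4b. Sizes moved by more than the replicate SD for MT2b with quantile normalization (1.79), for MT2a at stage 11 with median centring (-3.21) and quantile normalization (-2.90), and for MT-I-4b with a pseudocount of 10 (0.68). APX1 at stage 11 turned sign with quantile normalization (0.056). The stage difference of MT2a turned sign with median centring (0.58) and quantile normalization (0.59), and ranged from -0.44 to 0.17 with 1 library left out. The turned values among these were 0.17 and 0.06 without wild-type stage 10 replicates 1 and 3, 0.12 without nup1 stage 10 replicate 2 and 0.14 without nup1 stage 11 replicate 3. Its adjusted p passed in no alternative. Genes past the threshold numbered 2449 at stage 10 (1338 higher, 1111 lower) and 3610 at stage 11 (1315 higher, 2295 lower). A pseudocount of 10, which shrinks low genes by construction, gave 888 (431 and 457) and 1456 (473 and 983), and it ended the calls of ZIP7, NRAMP1 and NRAMP5 at stage 10 and of COPT1, COPT6, HMA2, HMA4, ZIP1, SODCP and Rac1 at stage 11. Lower genes at stage 11 numbered 1254 with median centring and 1216 with quantile normalization, and the cause was not tested. With 1 library left out the counts ranged from 1683 to 2586 (892 to 1445 higher, 791 to 1141 lower) and from 2840 to 3586 (962 to 1222 higher, 1878 to 2364 lower), and genes that differed between stages, 308, from 233 to 372.

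Same-numbered replicates are not stated to share a plant or batch, and their deviations correlated from -0.23 to 0.25, so they were not treated as pairs. With the number as a replicate block the differences of the members kept their values (-3.58, 1.34, -3.65 and 1.58), with SE of 0.24, 0.30, 0.26 and 0.42. Among the list genes the block ended the HMA2 call (adjusted p = 0.0168) and made one for ZIP8 at stage 10 (adjusted p = 0.00972). Unknown depth limits MT-I-4b most, at under 15 FPKM in each library.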
